A study of Mus musculus with 20 samples.

Results

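Pyruvate dehydrogenase sits between glycolysis and the citric acid cycle in mouse macrophages, and the transcripts described here are those of 10 genes: its catalytic subunits (Pdha1, Pdhb, Dlat and Dld) and its E3-binding protein Pdhx, its kinases Pdk1 and Pdk3, its phosphatases Pdp1 and Pdp2, and Mpc1, a subunit of the mitochondrial pyruvate carrier. They were chosen by gene symbol from a count table of 21963 entries, in which each symbol was found on 1 row, and all 10 were among the 11707 genes abundant enough to be tested. RNA was sequenced from bone marrow-derived macrophages (BMDMs), which are marrow cells grown into macrophages in medium conditioned by L929 cells. WT and Mcu-/- cells came from mice aged 15 to 25 weeks per the study's methods. Mcu encodes the pore of the mitochondrial Ca2+ uniporter, and the Mcu-/- mice carried a floxed Mcu allele deleted by Cx3cr1-cre, a driver active in myeloid cells.

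The 20 libraries formed 5 groups: WT untreated (n = 4), WT with zymosan for 3 h (n = 5), WT with zymosan and 10 µM BAPTA-AM (n = 4), Mcu-/- untreated (n = 4) and Mcu-/- with zymosan for 3 h (n = 3). Zymosan is a yeast cell wall particle that macrophages engulf, given at 2 particles per cell, and BAPTA-AM is a cell-permeable Ca2+ chelator. No group received BAPTA-AM without zymosan, and no Mcu-/- group received BAPTA-AM. The labels call the libraries biological replicates without tying them to animals, so the p-values measure the spread between these samples.

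The pyruvate dehydrogenase complex turns pyruvate, carried into the mitochondrial matrix by a heteromer of Mpc1 and Mpc2, into acetyl-CoA. Pdha1 and Pdhb form the E1 enzyme, Dlat is the E2 acetyltransferase, Dld is the E3 dihydrolipoamide dehydrogenase and Pdhx tethers E3 to the E2 core. Pyruvate dehydrogenase kinases (Pdk) phosphorylate E1 and switch it off, and pyruvate dehydrogenase phosphatases (Pdp) remove the phosphate and switch it on again. Pdp1 is the phosphatase isoform stimulated by Ca2+ in the matrix, Pdp2 is not Ca2+-sensitive, and Pdk1 is a known target of hypoxia-inducible factor. Transcript counts say nothing of phosphorylation or enzyme activity.

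Totals ran from 14420402 to 23954552 counts per library. Mcu itself averaged 151 ± 17.3 normalized counts (SD, n = 4) in untreated WT cells and 68.5 ± 14.2 (n = 4) in untreated Mcu-/- cells, with no overlap between the libraries of the genotypes. Normalized counts are counts scaled by TMM factors to the mean library. All 8 macrophage markers were present in every group, and the summed markers of 7 other cell types reached at most 55.4 CPM (counts scaled to the library total after TMM) in any library. Mcu-/- untreated replicate 4 stood apart from its group: 10.4% of 7658 genes lay more than 2-fold from the other libraries of its group, against 0 to 1.28% for the other 19. Its summed macrophage markers were 8610 CPM, against 14600 to 14900 in Mcu-/- untreated replicates 1 to 3, 9350 to 9620 in the 3 Mcu-/- zymosan libraries and 13500 to 15600 over the 13 WT ones. Several results that rest on this library are therefore given with and without it. Unless stated, values use all libraries. In bulk RNA, fewer cells of a type and less RNA per cell cannot be told apart.

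Per length of exon, the complex's subunits were not equally abundant. On the scale of CPM per kb of exon, averaged over the 20 libraries, Dld stood at 33.3 and Pdha1 at 30, Pdhb at 14.9, Mpc1 at 11.6 and Dlat at 8.79. Pdk1 followed at 7.47, Pdp1 at 4.64, Pdhx at 3.92, Pdk3 at 2.83 and Pdp2 at 1.55. On this average the kinases and phosphatases were lower than each of the catalytic subunits, and Pdk1 and Pdp1 were above Pdhx. The order differed between groups. Without zymosan Pdp1 was below Pdhx, at 2.22 against 4.19 in WT and 3.2 against 4.45 in Mcu-/- cells. In Mcu-/- cells with zymosan Pdk1 averaged 10.2 and Dlat 10.3. The Dld protein also serves other 2-oxoacid dehydrogenases, and its transcript cannot be divided among them. Pdha1 shares 603 exonic bases, 16.1% of its exon length, with the antisense gene Map3k15, which had 101 to 217 counts per library. Whether the counting used strand is not given in the sources used here.

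**Figure D1:**
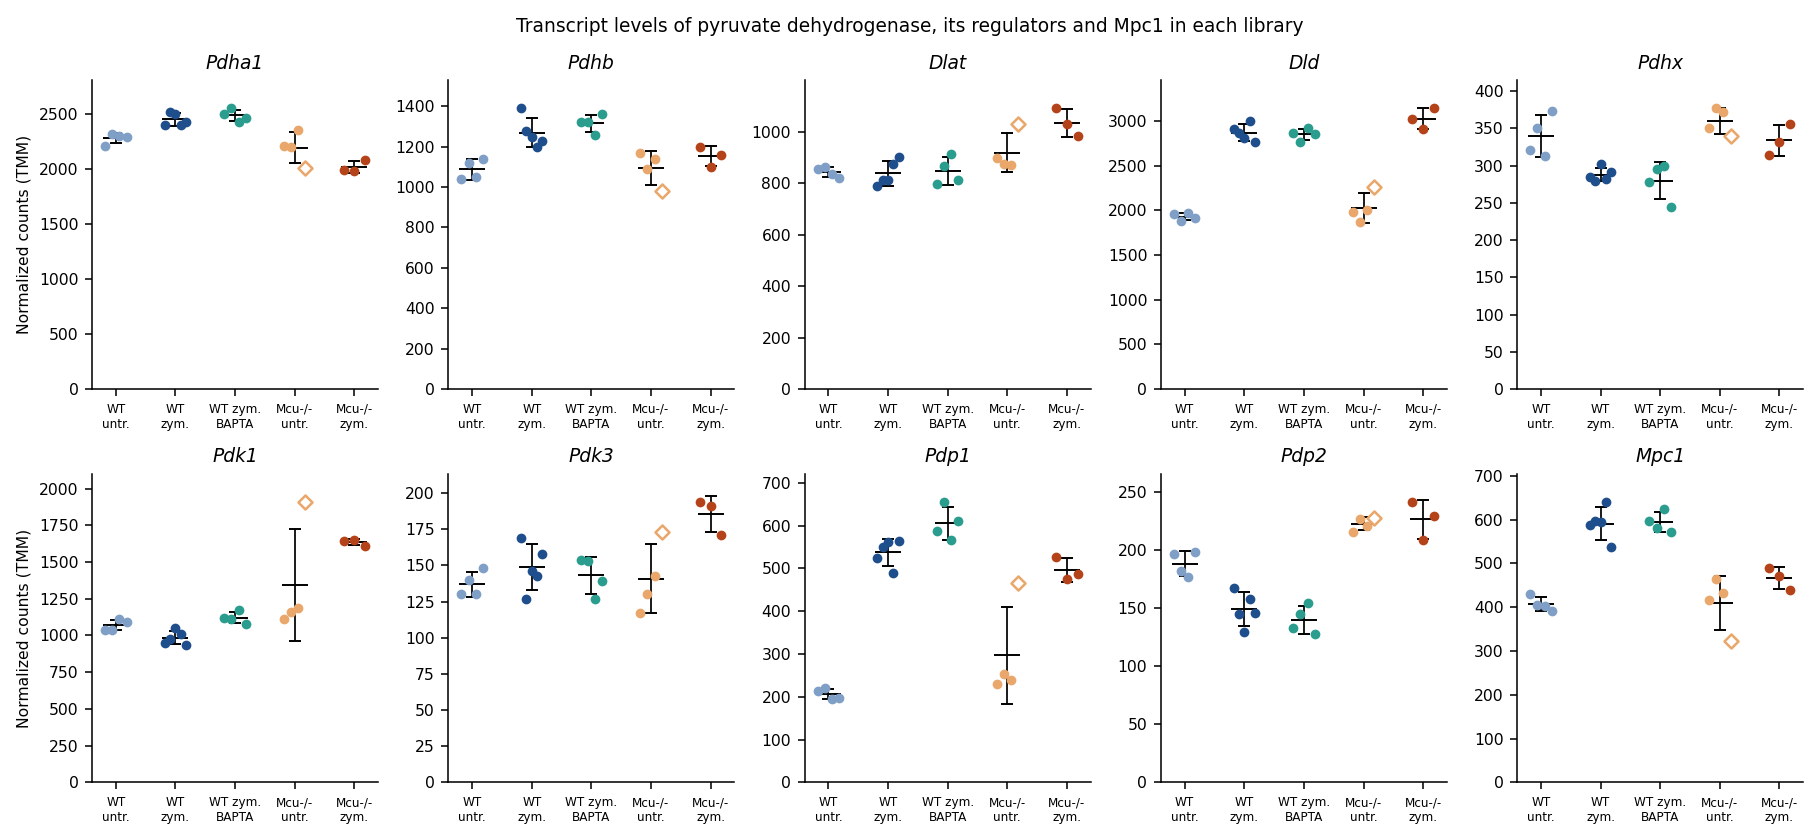
Normalized counts (vertical axis, from 0) of each of the 10 genes in every library, by group (horizontal axis); each point is a library, the dash and bar are the mean and SD, and the open diamond is Mcu-/- untreated replicate 4. The Pdp1 libraries lie at 196 to 220 in untreated WT cells and at 489 to 564 in WT cells with zymosan, while the Pdk1 libraries are highest in Mcu-/- cells with zymosan, at 1610 to 1650, apart from replicate 4 of untreated Mcu-/- at 1910.

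Zymosan raised the Ca2+-sensitive phosphatase most. Pdp1 measured 213, 220, 196 and 198 normalized counts in untreated WT cells and 525, 550, 563, 489 and 564 after zymosan. The groups were far apart, and the log2 fold change was 1.38 (SE 0.16, adjusted p = 2.05e-07, edgeR), or 2.6-fold. Pdp2, the other phosphatase, moved the other way, from 197, 182, 177 and 199 to 168, 145, 130, 158 and 146 normalized counts. Every Pdp2 zymosan library lay below every untreated one, with a log2 fold change of -0.34 (SE 0.08, adjusted p = 0.000855). As a share of phosphatase transcripts per kb, Pdp1 went from 58% ± 1.97 (SD, n = 4) to 81.9% ± 2.13 (n = 5).

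Of the 10 genes, 5 were called higher and 2 lower by zymosan in WT cells at an adjusted p under 0.05. Over all 11707 genes tested, 32.4% were called higher and 36.8% lower, so a call as such does not set these genes apart. Dld rose from 1960, 1880, 1970 and 1910 normalized counts to 2910, 2860, 2810, 3000 and 2760, a log2 fold change of 0.57 (SE 0.05, adjusted p = 1.63e-09). Mpc1, the carrier subunit, rose from 430, 405, 404 and 392 to 587, 597, 594, 641 and 537, a log2 fold change of 0.54 (SE 0.08, adjusted p = 7.93e-06). For both genes the treated and untreated libraries did not overlap, which held for 69.5% of all genes. The other calls were small: Pdhb at 0.23 (SE 0.05) and Pdha1 at 0.10 (SE 0.04) were higher, and Pdhx at -0.23 (SE 0.07) was lower. The Pdha1 call was lost under both other filters and without WT untreated replicate 1 or WT zymosan replicate 2 or 3, at 0.09 each.

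Dlat, at -0.01 (SE 0.06), and the kinases Pdk1, at -0.12 (SE 0.11), and Pdk3, at 0.12 (SE 0.11), did not pass the test. Without Mcu-/- untreated replicate 4, which enters this comparison only through the shared estimate of spread, Pdk1 passed as lower (adjusted p = 0.00982), where 41.3% of all genes did. The WT responses depend on the scale. TMM centres on the bulk of genes, whereas dividing by the library total moved the median log2 change over all tested genes by -0.49 in WT and -0.52 in Mcu-/- cells. On that scale Pdp1 still stood at 0.89, while Dld was only at 0.08 and Mpc1 at 0.04, and Pdhb (-0.26) and Pdha1 (-0.39) changed sign. The rises other than that of Pdp1, those of Dld and Mpc1 included, are therefore mostly relative to the typical gene.

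In Mcu-/- cells zymosan also raised Pdp1 and Dld relative to the typical gene, and against the library total they stood at 0.28 and 0.06. Pdp1 measured 230, 254, 239 and 467 normalized counts untreated and 528, 475 and 486 with zymosan, where replicate 4 is the 467. Its log2 fold change was 0.74 (SE 0.17, adjusted p = 0.000654), and 1.04 (SE 0.07) without replicate 4. Dld rose from 1980, 1870, 2000 and 2260 to 3020, 2910 and 3140, at 0.58 (SE 0.05, adjusted p = 9.05e-09), and the interval of its difference from the WT response was -0.13 to 0.14. In all, 4 genes were called higher, where 34.3% of all genes were, and 1 lower, where 39.4% were. Pdk3 (0.40, SE 0.12) and Dlat (0.17, SE 0.06) were the other genes called higher relative to the typical gene, although both changed sign against the library total (-0.11 and -0.35), and Pdha1 was the gene called lower (-0.12, SE 0.04). The Pdha1 call was lost with DESeq2 (-0.07, adjusted p = 0.166) and without Mcu-/- untreated replicate 3 (-0.08) or Mcu-/- zymosan replicate 3 or 4 (-0.11 each). The Dlat call was lost with the looser filter (0.15, adjusted p = 0.0572) and without Mcu-/- untreated replicate 2 or 3 (0.15 each) or Mcu-/- zymosan replicate 3 (0.13). When Mcu-/- untreated replicate 4 was left out, Pdk3 stood at 0.51, Dlat at 0.23 and Pdha1 at -0.16, each still called.

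Pdk1 is the gene for which replicate 4 decided the call. It measured 1110, 1160, 1190 and 1910 normalized counts in the untreated Mcu-/- libraries, the last being replicate 4, and 1640, 1650 and 1610 with zymosan. With all libraries the log2 fold change was 0.28 (SE 0.13) and just missed the threshold (adjusted p = 0.0505). Without replicate 4 it was called higher, at 0.50 (SE 0.05, adjusted p = 1.2e-12), where 39.2% of all genes were, while against the library total it was -0.20 with all libraries. Mpc1 measured 417, 465, 432 and 322 untreated, replicate 4 being the lowest, and 490, 471 and 439 with zymosan, and did not pass (0.19, SE 0.09, adjusted p = 0.0699). It did not pass without replicate 4 either, at 0.09 (SE 0.07).

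The difference between the genotypes' responses was tested as an interaction. Pdp1 rose less in Mcu-/- than in WT cells, with a difference of -0.64 on the log2 scale (SE 0.23, adjusted p = 0.0373), and of -0.34 (SE 0.10, adjusted p = 0.00392) without replicate 4. Mpc1 (-0.35, SE 0.12, adjusted p = 0.0331) and Pdha1 (-0.22, SE 0.06, adjusted p = 0.00792) also responded lower in Mcu-/- cells. Pdp2, which fell in WT cells, measured 216, 227, 221 and 228 untreated and 242, 209 and 230 with zymosan in Mcu-/- cells, and its response was higher there by 0.36 (SE 0.12, adjusted p = 0.0237). The Pdp1 call was lost with groups fitted alone (-0.65, adjusted p = 0.059) and without any of 9 single libraries (WT untreated 1, 3 or 4, WT zymosan 2, 3 or 5, Mcu-/- zymosan 3, 4 or 5), with values from -0.69 to -0.61. That of Mpc1 was lost with groups fitted alone (-0.36, adjusted p = 0.0533) and without any of 9 (WT untreated 2, 3 or 4, WT zymosan 4, Mcu-/- untreated 1, 2 or 3, Mcu-/- zymosan 4 or 5), with values from -0.36 to -0.28. That of Pdp2 was lost without Mcu-/- zymosan replicate 3 (0.31) or 5 (0.35). The 1 higher and 3 lower calls stand beside 15.2% and 20% of all genes. Leaving out replicate 4 gave 4 higher (Dlat, Pdp2, Pdk1 and Pdk3) and 4 lower (Pdha1, Pdhb, Pdp1 and Mpc1), beside 31% and 29.3% of all genes, and the Pdk1 difference then became 0.62 (SE 0.06) in place of 0.40 (SE 0.17, adjusted p = 0.0731).

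**Figure D2:**
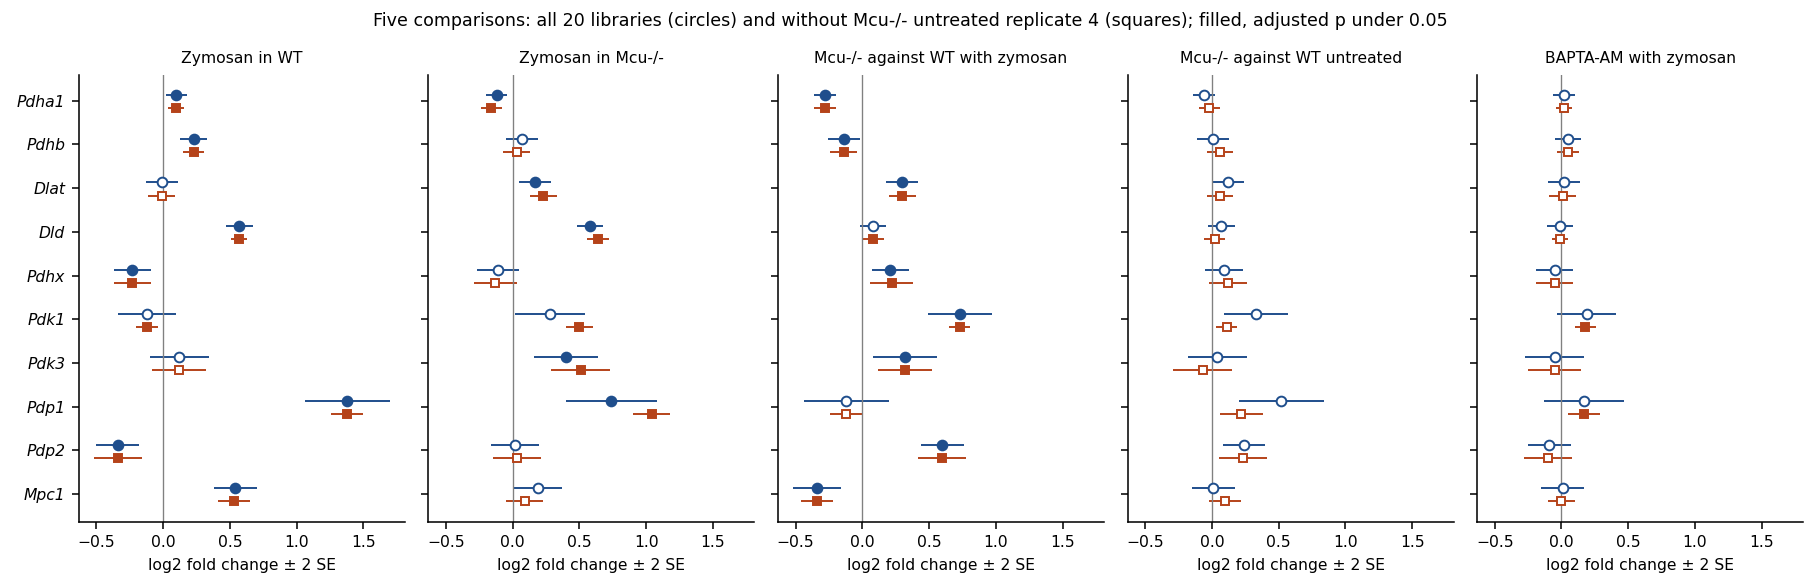
Log2 fold change with a bar of 2 SE to either side (horizontal axis) of the 10 genes (vertical axis) in 5 comparisons, with all 20 libraries (circles) and without Mcu-/- untreated replicate 4 (squares); filled symbols have an adjusted p under 0.05. Pdp1 at 1.38 is farthest right for zymosan in WT and Pdk1 at 0.73 for Mcu-/- against WT with zymosan; on the scale of the library total, Pdha1 and Pdhb change sign for zymosan in WT, and Dlat and Pdk3 for zymosan in Mcu-/-, among the genes called there.

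With zymosan present, Pdk1 and Pdk3 were higher in Mcu-/- than in WT cells, while the kinase Pdk2, at -0.24 (SE 0.17, adjusted p = 0.23), did not pass. Pdk1 measured 951, 979, 1050, 1010 and 936 normalized counts in WT and 1640, 1650 and 1610 in Mcu-/- cells, a log2 fold change of 0.73 (SE 0.12, adjusted p = 5.33e-05), or 1.66-fold. Pdk3 measured 169, 127, 146, 143 and 158 in WT and 194, 191 and 171 in Mcu-/- cells, a log2 fold change of 0.32 (SE 0.12, adjusted p = 0.0227). Neither kinase's libraries overlapped between genotypes, though the nearest Pdk3 libraries, at 169 and 171, nearly met, and 64% of all genes had no overlap here. The Pdk3 call was lost without Mcu-/- zymosan replicate 3 (0.28) or 4 (0.30) or WT zymosan replicate 2 (0.27), with adjusted p from 0.0569 to 0.0818. Pdp2 was also higher in Mcu-/- cells, at 0.60 (SE 0.08, adjusted p = 1.15e-05), whereas Pdp1 at -0.12 did not pass, with an interval of -0.44 to 0.21.

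Pdha1 measured 2400, 2520, 2500, 2400 and 2430 normalized counts in WT and 1990, 1980 and 2080 in Mcu-/- cells with zymosan, and was lower, at -0.28 (SE 0.04, adjusted p = 2.84e-05). Pdhb, its E1 partner, was lower, at -0.14 (SE 0.06, adjusted p = 0.0417), a call lost with DESeq2 (adjusted p = 0.0549), with the looser filter and without any of 5 single libraries (Mcu-/- zymosan 4 or 5, WT zymosan 1, 2 or 3; values from -0.15 to -0.11). Lower, too, was Mpc1, at -0.34 (SE 0.09, adjusted p = 0.00254). Dlat measured 788, 813, 812, 873 and 901 in WT and 1090, 1030 and 982 in Mcu-/- cells, and was higher by 0.30 (SE 0.06, adjusted p = 0.000368). Pdhx was higher by 0.21 (SE 0.07, adjusted p = 0.0183), a call lost without Mcu-/- zymosan replicate 5 (0.16, adjusted p = 0.109), and Dld, at 0.08 (SE 0.05), passed only without Mcu-/- untreated replicate 4 (adjusted p = 0.0444), where 36.4% of all genes were called higher. In all, 5 genes were called higher and 3 lower, beside 31.8% and 30.3% of all genes, and the smallest p that an exact permutation of these 8 libraries can give is 0.0179.

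Other measures moved with this comparison. Summed macrophage markers were 9350 to 9620 CPM in the Mcu-/- zymosan libraries as against 15300 to 15600 with zymosan in WT, and the 5 fibroblast markers, led by Col1a1, summed to 40.5 to 49.3 against 4.21 to 5.12 CPM. Pdgfra and Lum, which mark fibroblasts, had at most 3 counts in each Mcu-/- zymosan library. The 4 B cell markers summed to 12.4 to 13.3 against 30.4 to 36.7 CPM. Mcu-/- untreated replicate 4 held 25.3 CPM of the fibroblast markers and 18.1 CPM of the B cell markers, against 0.621 to 1.64 and 53.2 to 55.1 CPM in replicates 1 to 3. For 7 of the 8 genes called between the genotypes with zymosan (all but Pdhx), replicate 4 lay on the same side of replicates 1 to 3 as the Mcu-/- zymosan libraries lay of the WT ones. For Pdp2 that shift was only 0.04 on the log2 scale. The share of all called genes with the same side was not counted, so 7 of 8 does not set these genes apart. The part of these differences between libraries in the result was not tested.

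Without zymosan the genotypes gave no call. None of the 10 genes passed by edgeR, with or without replicate 4, and none by DESeq2, and 3 had an unadjusted p under 0.05 with each tool. Of all genes, 0.35% were called, and 3.35% without replicate 4. The edgeR values of those 3 were 0.52 for Pdp1 (SE 0.16, unadjusted p = 0.00463), 0.24 for Pdp2 (SE 0.08, unadjusted p = 0.00711) and 0.33 for Pdk1 (SE 0.12, unadjusted p = 0.0113). Without replicate 4 the Pdp1 difference was 0.22 and that of Pdk1 was 0.11. Mcu was called lower here, at -1.14 (SE 0.13, adjusted p = 0.000163).

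BAPTA-AM, which binds Ca2+ in the cytosol, was compared with zymosan alone in WT cells. None of the 10 genes was called by edgeR or DESeq2, none had an unadjusted p under 0.05 by either tool, and 12.8% of all genes were called. Pdp1 measured 588, 656, 566 and 611 normalized counts with BAPTA-AM, all above the WT zymosan libraries, at 0.17 (SE 0.15, adjusted p = 0.54). Pdk1 measured 1120, 1110, 1170 and 1080, also all above them, at 0.19 (SE 0.11, adjusted p = 0.336). The spread set by replicate 4 of another group entered these tests, and without that library both were called higher, Pdk1 with adjusted p = 0.000548 and Pdp1 with adjusted p = 0.0175, where 15.3% of all genes were called higher. In an exact permutation test, two-sided, p was 0.0159 for Pdk1 and 0.00794 for Pdp1, before any adjustment for the 10 genes, and 24.3% of all genes had no overlap between these groups. The intervals of the log2 difference with all libraries were -0.10 to 0.08 for Dld and -0.15 to 0.17 for Mpc1.

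The balance of kinase to phosphatase transcripts followed from these values. Within a library, Pdk1 counts were 5.19 ± 0.478 (SD, n = 4) times the Pdp1 counts in untreated WT cells, 1.84 ± 0.147 (n = 5) with zymosan and 1.86 ± 0.158 (n = 4) with zymosan and BAPTA-AM. In Mcu-/- cells the ratio was 4.62 ± 0.385 (n = 4) untreated, or 4.79 without replicate 4, and 3.3 ± 0.19 (n = 3) with zymosan. The ratio does not depend on how libraries are scaled, and replicate 4, at 4.09, was low but nearer its group than for either gene alone. Every Mcu-/- zymosan library, from 3.1 to 3.48, lay above every WT zymosan library, from 1.66 to 2.06. With both kinases over both phosphatases, the log2 difference between genotypes with zymosan was 0.61, against 0.84 for Pdk1 over Pdp1. These counts are not divided by exon length, which is 7.779 kb for Pdk1 and 4.507 kb for Pdp1. Per kb of exon, Pdk1 averaged 6.66 CPM against 2.22 for Pdp1 in untreated WT cells. With zymosan the values were 6.14 against 5.79 in WT and 10.2 against 5.34 in Mcu-/- cells.

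**Figure D3:**
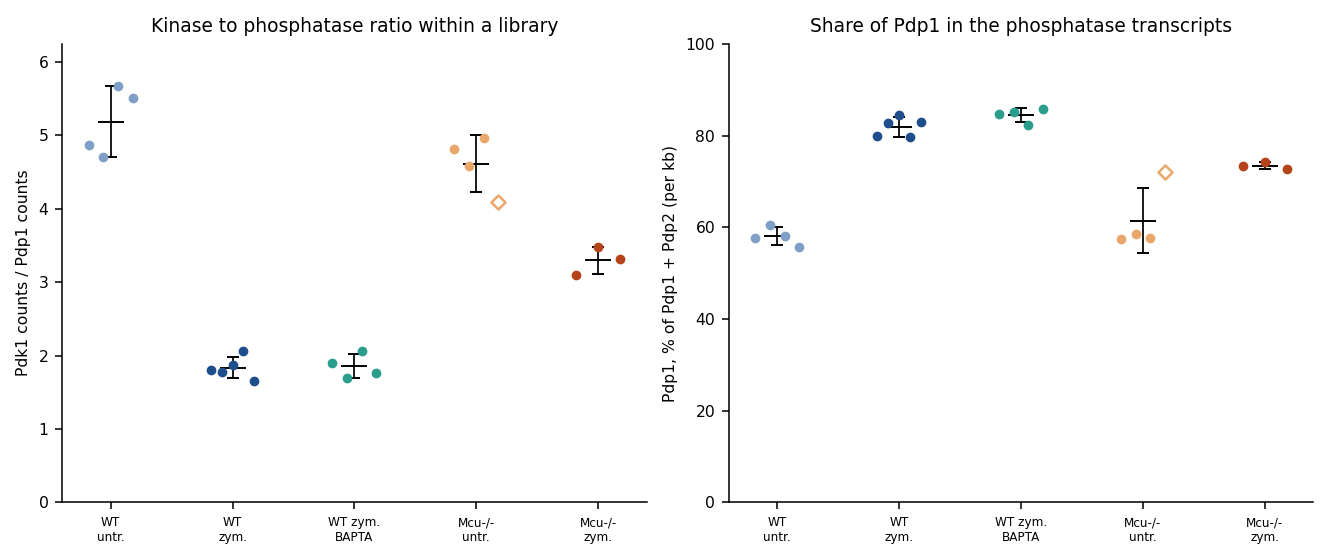
Left, Pdk1 counts divided by Pdp1 counts within each library (vertical axis, a ratio); right, Pdp1 as a percent of Pdp1 plus Pdp2 per kb of exon; points are libraries by group, dashes and bars the mean and SD, the open diamond Mcu-/- untreated replicate 4. The ratio averages 5.19 in untreated WT, 1.84 in WT with zymosan and 3.3 in Mcu-/- with zymosan, and the Pdp1 share averages 58, 81.9 and 73.5%.

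**Figure D4:**
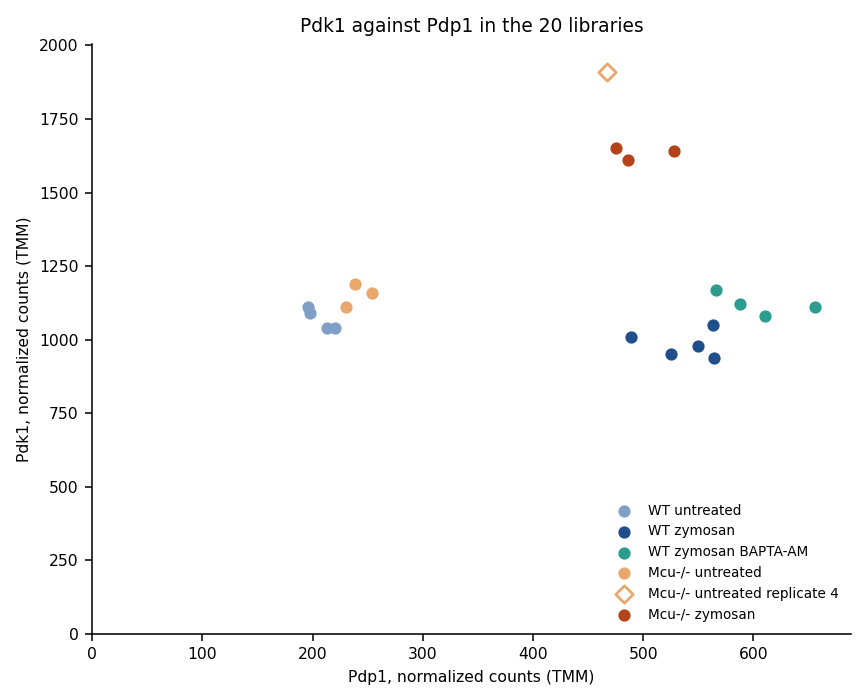
Pdk1 (vertical axis) against Pdp1 (horizontal axis) in normalized counts for the 20 libraries, coloured by group, with Mcu-/- untreated replicate 4 as an open diamond. The WT zymosan libraries move right of the untreated ones with Pdk1 at 936 to 1050, and the Mcu-/- zymosan libraries lie both right and up, at 1610 to 1650, beside replicate 4 at 467 for Pdp1 and 1910 for Pdk1.

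The order of the 5 groups differed between genes. Pdha1, Pdhb and Mpc1 were highest in the WT groups with zymosan, with and without BAPTA-AM, which overlapped each other and lay above all other groups. For Pdhb the groups nearly met, with WT zymosan replicate 4 at 58.4 CPM and Mcu-/- zymosan replicate 3 at 58.2 CPM. Dlat, Pdk1, Pdk3 and Pdp2 were highest on average in Mcu-/- cells with zymosan, and of these only Pdk3 had no overlap with the next group, WT with zymosan, while Mcu-/- untreated replicate 4, at 173, lay within its range. Pdhx was highest on average in the untreated groups, whose libraries overlapped each other and those of Mcu-/- cells with zymosan. Dld was split by zymosan alone, at 2760 to 3140 in the 12 zymosan libraries and 1870 to 2260 in the 8 untreated ones. The share of all genes with such orders was not counted, so they do not set these genes apart.

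Among the remaining regulators, Pdpr, the regulatory subunit of the Pdp1 phosphatase, fell with zymosan in both genotypes. It averaged 391 ± 16.5 normalized counts in untreated WT (n = 4), 246 ± 30.8 in WT zymosan (n = 5) and 193 ± 10.5 in Mcu-/- zymosan cells (n = 3), with log2 fold changes for zymosan of -0.67 in WT and -0.95 in Mcu-/- cells. Pdk2 fell with zymosan in Mcu-/- cells (-0.58, SE 0.17, adjusted p = 0.00541) and stood at -0.21 in WT cells, where it did not pass. Mpc2, the carrier's other subunit, passed in none of the 6 tests, with averages from 555 to 613 normalized counts. Pdk4 had at most 7 counts in a library and Pdha2, the testis paralogue of Pdha1, had 0 in all 20, and neither was tested. No list named here was tested as a set.

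Genes of related enzymes were mixed. The list held subunits of other 2-oxoacid dehydrogenases, the kinase and phosphatase of the branched-chain enzyme, and glycine cleavage genes. Of its 11 tested genes, zymosan in WT called 2 higher and 4 lower, beside 32.4% and 36.8% of all genes. The median log2 was -0.28 against -0.04 over all genes. Of the genes called lower, only Dbt is a subunit of a 2-oxoacid dehydrogenase. Ppm1k, the phosphatase of the branched-chain enzyme, averaged 67.1 ± 14.4 normalized counts in untreated WT (n = 4) and 826 ± 36.1 in WT zymosan cells (n = 5), a log2 fold change of 3.61 (SE 0.11, adjusted p = 3.99e-16). It reached 1360 ± 19.6 (n = 3) in Mcu-/- zymosan cells, 0.72 above WT (SE 0.09, adjusted p = 3.59e-06), and it was lower with BAPTA-AM, at -0.40 (SE 0.09, adjusted p = 0.00426). Dlst, the E2 of the 2-oxoglutarate enzyme, rose by 0.72 in WT and 0.52 in Mcu-/- cells with zymosan, and Dbt, the branched-chain E2, fell by 0.76 and 0.56.

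The cofactors of the complex, lipoate and thiamine diphosphate, come from other genes. Of 13 tested, zymosan called 3 higher and 6 lower in WT and 2 higher and 8 lower in Mcu-/- cells, beside 32.4% and 36.8% of all genes in WT and 34.3% and 39.4% in Mcu-/- cells. Among those lower was Oxsm, a mitochondrial fatty acid synthase enzyme upstream of lipoate, at -1.55 and -1.49. Lias, lipoate synthase, fell by 0.48 in WT cells with zymosan.

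Of 12 tested genes that supply pyruvate or use it otherwise, zymosan called 4 higher and 2 lower in WT and 6 higher and 5 lower in Mcu-/- cells, beside 32.4% and 36.8% of all genes in WT and 34.3% and 39.4% in Mcu-/- cells. Slc16a1, a lactate and pyruvate transporter of the plasma membrane, averaged 243 ± 20.7 normalized counts in untreated WT (n = 4), 2140 ± 124 in WT zymosan (n = 5) and 5600 ± 195 in Mcu-/- zymosan cells (n = 3). Its response was larger in Mcu-/- than in WT cells by 1.17 (SE 0.12, adjusted p = 7.15e-07). Ldha, which reduces pyruvate to lactate, rose by 0.63 in WT cells (SE 0.17, adjusted p = 0.00303), and Pkm, which makes pyruvate, was higher in Mcu-/- than in WT cells with zymosan by 1.08 (SE 0.20, adjusted p = 0.000144). Of the 12 genes tested in this list, 5 were higher and 4 lower in that comparison, beside 31.8% and 30.3% of all genes. In untreated Mcu-/- libraries Pkm ran from 27500 to 67300 normalized counts (median 28900), against a mean of 74300 with zymosan. Without replicate 4 its untreated genotype difference moved from 0.39 to -0.03.

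Hypoxia-inducible genes and other Ca2+-sensitive dehydrogenases were counted in the same way. Of 18 hypoxia-inducible genes, other than Pdk1 itself, 9 stood higher and 3 lower in the Mcu-/- cells when both genotypes had zymosan, with a median of 0.29 against 0.02 over all genes, of which 31.8% were higher and 30.3% lower. Adm was higher by 2.01 (SE 0.13, adjusted p = 1.39e-09) and P4ha2 by 2.50 (SE 0.36, adjusted p = 1.3e-05), and Ndrg1 was lower, at -2.57 (SE 0.37, adjusted p = 1.45e-05). In untreated Mcu-/- libraries P4ha2 ran from 66.3 to 299 normalized counts (median 77.1), against a mean of 303 with zymosan. Ndrg1 ran from 4140 to 25200 (median 25100), against 4800, and Adm from 17.3 to 32.7, against 405. Without replicate 4 the untreated genotype difference moved from 0.78 to -0.03 for P4ha2 and from -0.34 to 0 for Ndrg1. With BAPTA-AM 8 of the 18 hypoxia-inducible genes were higher and 1 lower, beside 6.43% and 6.33% of all genes. Farthest up was Egln3 at 1.08 (SE 0.34, adjusted p = 0.045), with a mean of 3.54 CPM with BAPTA-AM. Among those with at least 10 CPM it was the glucose transporter Slc2a1, at 0.93 (SE 0.10, adjusted p = 3.52e-06). Of 5 genes of other Ca2+-sensitive mitochondrial dehydrogenases, all 5 were lower in Mcu-/- than in WT cells with zymosan, among them Gpd2 at -0.76 (SE 0.06), Idh3g at -0.36 (SE 0.07) and Ogdh at -0.20 (SE 0.04). Of all genes, 30.3% were lower there.

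By Pearson correlation over the 20 libraries, among 7657 genes, the patterns most like Pdp1 were those of Atf6 (r = 0.984), Fam46c (0.981) and Glce (0.979). Closest to Pdk1 were C1galt1 (0.976), Nceh1 (0.972) and Dennd1b (0.97), and closest to Mpc1 were Fnbp4 (0.969), Nemp1 (0.968) and Dgkh (0.964). The points share their groups and libraries, so these values describe likeness only. Nceh1 averaged 2440 ± 28.2 normalized counts in WT zymosan (n = 5) and 5000 ± 58.9 in Mcu-/- zymosan cells (n = 3).

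The promoters of the 10 genes were searched on both strands for ACGTG, a form of the core of the hypoxia response element. Other forms of the core were not searched, so a window without ACGTG may hold another form. The RefSeq windows ran from 250 bases before to 50 after each start (GRCm38.p6). Of 11 windows found for 9 of the genes (none for Pdp1), 3 held it, against 19.6% of 32851 promoters, and neither Pdk1 window did. The stretches below show every match, with the motif in capitals, 5′ to 3′ on the gene's strand. Of the genes shown, Pdp2 and Pdk3 were higher in Mcu-/- than in WT cells with zymosan and Pdhb was lower. Pdk1, Dlat and Pdhx, also higher, and Pdha1 and Mpc1, also lower, had no match. A link of the motif to these differences was not tested. In Pdp2 matches on both strands overlap, and in Pdhb the match is on the other strand.
Pdp2, chr8:104591233-104591278, plus strand: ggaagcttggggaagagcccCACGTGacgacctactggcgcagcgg
Pdk3, chrX:93832179-93832223, minus strand: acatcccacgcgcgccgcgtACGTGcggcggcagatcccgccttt
Pdhb, chr14:8173216-8173242, minus strand: ctCACGTcacctctgctggaccgcgac
A match is a description of these letters and does not show binding.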

How the data were processed

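The deposited table holds raw gene counts for 20 libraries of BMDMs. Per the study's methods the authors trimmed reads with cutadapt, mapped them to mm10 with STAR and counted them with HTSeq; the versions, the annotation and the strand setting are not given in the sources used here. The Mcu-/- zymosan columns are numbered 3 to 5 and were matched to their group only.

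Genes were filtered with filterByExpr, scaled by TMM and tested in edgeR 4.0.16 (R 4.3.3) by the quasi-likelihood test, with 1 coefficient per group over all 20 libraries and Benjamini-Hochberg adjustment over 11707 genes (threshold 0.05). An exact permutation test (two-sided) was run on each member between groups. Normalized counts are TMM CPM times the mean total of 20617761. Exon lengths came from GENCODE M21 gene models (GRCm38). Intervals are 95% and cover the spread between libraries. Totals of 14420402 to 23954552 counts per library set the precision. DESeq2 1.42.0, other filters and scalings, a minimum fold change, groups fitted alone, a replicate block and each library left out were alternatives. On simulated counts for zymosan in WT, edgeR recovered 187 of 200 genes changed by 1 on the log2 scale, with 12 false calls among 11707 genes. The simulation took its spread without Mcu-/- untreated replicate 4, held no outlying library and left all other genes unchanged. These rates therefore check the code and do not describe the tests reported here.

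The members, lists and tests were chosen with earlier results of these data known. Named genes are the 10 members, the remaining regulators and, from each other list, up to 3 called genes per comparison with the largest change and at least 10 CPM in the higher group; the report gives a selection of these.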

Additional observations from a re-analysis of the deposited data

Results flagged for a closer look

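In a screen of 40 groups of 4 or 5 values, the values farthest from the rest of their group were both in Mcu-/- untreated replicate 4. Pdp1 stood at 467 normalized counts, against 230 to 254 in the other 3 libraries, and Pdk1 at 1910, against 1110 to 1190. The gap to the nearest library was 0.898 and 0.904 of the whole range. Chance alone puts about 1 in 20 groups past this limit, and the part of that library's other differences was not tested.

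For 4 genes the response to zymosan differed between genotypes by the interaction test (edgeR). The response in Mcu-/- minus that in WT cells was -0.22 on the log2 scale for Pdha1 (adjusted p = 0.00792), -0.64 for Pdp1 (0.0373), 0.36 for Pdp2 (0.0237) and -0.35 for Mpc1 (0.0331). Without Mcu-/- untreated replicate 4 these were -0.26, -0.34, 0.37 and -0.45 in the same order. Pdha1 stood at 0.10 in WT and -0.12 in Mcu-/- cells.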

How the results depend on the processing

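Dividing by the library total turned 4 called values (Pdha1 -0.39 and Pdhb -0.26 for zymosan in WT, Dlat -0.35 and Pdk3 -0.11 for zymosan in Mcu-/-). With a minimum log2 change of 1 the called genes among the 10 were 1 higher and 0 lower for zymosan in WT, and 0 in either direction for zymosan in Mcu-/-, for Mcu-/- against WT with zymosan and for the difference of the responses. The lower call for zymosan in Mcu-/- (Pdha1) became 0 with DESeq2, with DESeq2 size factors and with groups fitted alone, and BAPTA-AM had 2 higher calls and the difference of responses 1 lower call when groups were fitted alone. Leaving out each library in turn gave 4 to 5 higher and 2 to 3 lower for zymosan in WT, 3 to 5 and 0 to 1 for zymosan in Mcu-/-, 4 to 6 and 2 to 3 for Mcu-/- against WT with zymosan, 0 and 0 untreated, 0 to 2 and 0 for BAPTA-AM, and 0 to 4 and 1 to 4 for the difference of the responses. The Pdk1 to Pdp1 ratio with BAPTA-AM (0.02) ranged from -0.04 to 0.06, being -0.02 without WT zymosan replicate 5 and -0.04 without BAPTA-AM replicate 3. Pdha1 in WT fell short of the threshold under both other filters (0.09), and Pdhb between genotypes with zymosan under DESeq2 (-0.14) and the looser filter (-0.15).

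Over all genes, the untreated genotypes gave 15 higher and 26 lower calls by edgeR and 57 and 55 by DESeq2, and 178 and 213 without Mcu-/- untreated replicate 4. BAPTA-AM gave 753 and 741, and 1741 and 1788 with groups fitted alone. Of 24 pairs of libraries with the same replicate number, 5 had a correlation of deviations over 0.1 (range -0.27 to 0.19). Pairs with different numbers were not compared, so whether replicate numbers pair the samples was not settled. With the replicate block, 5 higher and 2 lower calls for zymosan in WT and none untreated or with BAPTA-AM were found among the 10, with Pdp1 at 1.36, while over all genes BAPTA-AM gave 433 and 455 and the untreated genotypes 6 and 16. The Mcu-/- zymosan columns could not enter the block. The causes of these changes were not tested.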
